A study of Mus musculus with 6 samples.

Results

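Described here are 10 genes of cell cycle control and the nuclear lamina, some of which are widely used to judge cellular senescence. They are the INK4 inhibitors Cdkn2a, Cdkn2b, Cdkn2c and Cdkn2d, the CIP/KIP inhibitors Cdkn1a, Cdkn1b and Cdkn1c, the tumour suppressor Trp53 with its ubiquitin ligase Mdm2, and the lamin gene Lmnb1. They were taken by gene symbol from the platform annotation, which gave a value for 9 of the 10, out of 30702 genes with a value in the series. Trp53 had no probe set assigned to it alone and was not analysed here. The values came from 6 Affymetrix arrays of cultured bone marrow stromal cells, 3 from mice aged 3 months and 3 from mice aged 18 months. Cells were released from crushed femurs with collagenase, sorted for Sca-1 and CD29 and against CD45 and CD11b, and expanded from the first passage in culture before RNA was taken. The labels give no strain, sex, genotype or treatment for either age, and the expansion in culture limits both groups as a model of cells in the marrow. They call the arrays biological replicates without stating whether each was a separate animal, so the p-values speak of spread among 6 arrays, which may be technical.

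INK4 proteins bind the cyclin D kinases CDK4 and CDK6 and keep them from phosphorylating the retinoblastoma protein, while CIP/KIP proteins act more broadly and also inhibit CDK2. Cdkn2a encodes both the INK4 inhibitor p16Ink4a and, from another first exon and reading frame, p19Arf, which blocks MDM2 and so stabilises p53; p53 in turn activates Cdkn1a and Mdm2. In many senescent cells p16Ink4a and p21 accumulate and lamin B1 is lost, and the age of the donor is one of the settings in which this has been examined in marrow stromal cells.

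The stretches just upstream of the transcript starts are shown for the 3 inhibitors with the largest differences and for Mdm2, the p53 target that moved the other way. They are from RefSeq on GRCm38.p6, the 200 bases before each start, written 5′ to 3′ along the gene. Windows were matched for 8 of the 10 members. Capitals mark matches, on either strand, to the p53 half-site consensus, a paired p53 core (CATG, any 6 bases, CATG), the interferon elements GAAA, any 2 bases, GAAA and TTCNNNGAA, the E2F words TTTGGCGC, TTTCGCGC, TTTCCCGC and TTTGCCGC, and the cAMP element TGACGTCA.
Cdkn2b, chr4:89311033-89311232, minus strand: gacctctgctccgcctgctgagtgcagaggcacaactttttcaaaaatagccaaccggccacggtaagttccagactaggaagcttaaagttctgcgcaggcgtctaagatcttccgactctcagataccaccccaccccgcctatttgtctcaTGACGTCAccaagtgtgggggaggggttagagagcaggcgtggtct
Cdkn2a, distal start, chr4:89294620-89294819, minus strand: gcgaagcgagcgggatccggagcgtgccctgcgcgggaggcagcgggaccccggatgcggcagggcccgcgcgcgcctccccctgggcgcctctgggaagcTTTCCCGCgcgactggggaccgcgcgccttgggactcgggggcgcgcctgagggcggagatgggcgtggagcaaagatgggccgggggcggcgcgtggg
Cdkn2a, proximal start, chr4:89282193-89282392, minus strand: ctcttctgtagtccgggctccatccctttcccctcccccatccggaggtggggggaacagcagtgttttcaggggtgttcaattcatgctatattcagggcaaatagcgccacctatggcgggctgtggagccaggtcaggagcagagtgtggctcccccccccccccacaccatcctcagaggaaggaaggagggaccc
Cdkn1a, distal start, chr17:29090779-29090978, plus strand: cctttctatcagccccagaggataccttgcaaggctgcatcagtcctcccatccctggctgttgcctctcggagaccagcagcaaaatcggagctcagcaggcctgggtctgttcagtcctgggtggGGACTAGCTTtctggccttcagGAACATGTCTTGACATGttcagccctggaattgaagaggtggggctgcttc
Cdkn1a, proximal start, chr17:29093569-29093768, plus strand: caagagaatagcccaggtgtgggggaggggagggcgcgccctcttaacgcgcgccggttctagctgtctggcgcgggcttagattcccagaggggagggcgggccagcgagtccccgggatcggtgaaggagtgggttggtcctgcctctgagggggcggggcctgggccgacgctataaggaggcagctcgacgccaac
Mdm2, chr10:117710759-117710958, minus strand: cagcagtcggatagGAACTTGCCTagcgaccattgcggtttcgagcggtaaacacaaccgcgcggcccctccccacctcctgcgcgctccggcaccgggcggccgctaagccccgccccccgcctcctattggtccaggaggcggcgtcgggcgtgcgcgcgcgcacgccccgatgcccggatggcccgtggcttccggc
The distal start of Cdkn2a is that of p19Arf and the proximal start that of p16Ink4a. At the distal start of Cdkn1a the first run of capitals is a half-site, and the second is a half-site that overlaps the paired core; the proximal starts of Cdkn1a and Cdkn2a hold no match to these letters. In the 250 bases before a start, the paired core was present in 0.490% of all 32851 RefSeq windows and, among the members, in Cdkn1a. That core was put in place of a longer consensus after the windows had been searched. The half-site was in 7.13% of windows, Cdkn1a, Cdkn2d, Mdm2 and Trp53 among them, the E2F words in 1.86%, Cdkn2a among them, and the cAMP element in 1.55%, Cdkn2b among them. The interferon elements, present in 2.98% and 7.02% of windows, were in none of the members' windows. These matches describe letters in a short window and were not tested as binding sites.

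Differences are given as 18 months minus 3 months on the scale of the deposited values, which were taken as log2 from their range. The differences carry the SE of the fit and were tested with limma across 20187 genes (Benjamini-Hochberg adjusted p under 0.05). Of the 9 members with a value, all passed the filter on dim probe sets, 6 were higher in aged cells, 2 were lower and 1 did not pass. The background was high: 40.6% of all genes tested passed, 18.4% higher and 22.1% lower, and the groups did not overlap in 51.3%. Young and aged values were separate in 8 of the 9 members. A call alone thus sets few genes apart here, and the differences are given with the share of all genes that moved as far. The median difference of the members was 0.26, against 0.01 over all genes tested. When the test asked for a difference beyond 0.3, 9.83% of all genes passed, and of the members Cdkn2b, Cdkn1a and Cdkn2a.

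Array medians of the transcript clusters lay between 5.39 and 5.44, and Pearson's r across genes was 0.996 to 0.999 within an age and 0.989 to 0.990 between ages (genes are not independent replicates). The upper limit of 95% of the negative control probe sets was 7.61, and for a member with a mean below it in either age no fold is given. Probe classes that match no mouse sequence differed by 0.01 to 0.29 between ages, all upward in aged arrays, while the median positive control probe set differed by -0.15 and the median negative control by -0.26. No scan date or batch was given for any array, and a batch that followed age could not be seen. Of the sort markers, Itgb1 (CD29) was at 11.86 and 11.76 (a decrease that passed on the deposited scale but not after quantile normalization or either centring), Ptprc (CD45) at 3.65 and 3.62 and Itgam (CD11b) at 5.26 and 5.24 lay within the negative control range, and Ly6a (Sca-1) was not analysed here. Of 38 measured markers of macrophages, neutrophils, lymphoid, endothelial, erythroid and osteoclast cells, 37 had a mean within that range in at least 1 age; 6 rose and 1 fell of 26 tested, and Ctsk, which rose from 9.07 to 10.04, was the exception. The log2 of the summed level was separate between ages for 4 lists: macrophage (8.76 to 8.81 in young and 8.85 to 8.88 in aged arrays), neutrophil (8.12 to 8.39 and 8.54 to 8.60), endothelial (8.68 to 8.82 and 8.84 to 8.86) and osteoclast markers (9.66 to 9.75 and 10.40 to 10.43). It overlapped for lymphoid (8.28 to 8.44 and 8.44 to 8.46) and erythroid markers (8.49 to 8.66 and 8.59 to 8.60). Single genes were separate between ages in 51.3% of all those tested. In the 4 separate lists only Cd14, Ly6g, Camp, Kdr and Ctsk were called higher, and Tek lower. Their other markers did not pass or were below the filter, so a list sum can rest on few genes, as that of osteoclast markers on Ctsk. Of 8 measured stromal markers, 4 rose, 1 fell and 2 did not pass. Pdgfrb (11.51 and 11.71), Col1a1 (12.43 and 13.22), Vcam1 (9.05 and 10.05) and Cxcl12 (7.63 and 9.87) lay above the negative control range in both ages and rose, while Thy1 (6.31 and 6.28), Eng (6.53 and 6.60), Nt5e (7.58 and 7.05, a decrease that passed) and Lepr (4.18 and 4.31, below the filter) lay within it. Their part in the members' differences was not tested, and in such bulk samples a change in the share of cells cannot be told apart from a change of RNA per cell.

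Cdkn2b, which encodes p15Ink4b, an inhibitor of CDK4 and CDK6 that TGF-beta can induce, had the largest difference of the members. Its log2 values were 9.25, 9.07 and 9.27 in young cells and 10.63, 10.72 and 10.85 in aged cells. All aged arrays were above all young ones, with a gap of 1.36 between the groups. The means were 9.19 ± 0.11 and 10.73 ± 0.12 (SD, n = 3 each), a rise of 1.54 with an SE of 0.07 (limma, adjusted p = 4.18e-07), or 2.90-fold. Of all genes tested, 0.996% rose by as much. The difference lay between 1.48 and 1.64 under every scaling, filter, model and left-out array that was tried.

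Cdkn2a rose less than its neighbour. The arrays read 9.49, 9.39 and 9.45 in young cells and 10.19, 10.20 and 10.20 in aged cells, so the aged arrays nearly coincided and none overlapped with the young ones. The rise was 0.75 with an SE of 0.03 (limma, adjusted p = 4.16e-07), or 1.69-fold, and 3.19% of all genes rose by as much. The probe set is annotated to the gene and gives 1 value for it, so the products of the 2 starts shown above, p16Ink4a and p19Arf, cannot be told apart. Within each array, the log2 value of Cdkn2b less that of Cdkn2a was -0.24, -0.32 and -0.18 in young cells and 0.44, 0.52 and 0.66 in aged cells, a shift of 0.79. All 3 aged arrays were above all 3 young arrays (exact permutation test, two-sided p = 0.1, the smallest that 3 against 3 arrays allow; adjusted p = 0.1 over 3 pairs chosen after their values were seen).

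The other 2 INK4 genes rose by smaller amounts and were dim. Cdkn2c, encoding p18Ink4c, read 7.21, 7.10 and 7.01 in young and 7.43, 7.51 and 7.42 in aged cells, all within the range of the negative controls. It rose by 0.35 with an SE of 0.06 (limma, adjusted p = 0.00143), more than the largest shift of the background probes, and 8.23% of all genes rose by as much. Cdkn2d, encoding p19Ink4d, which shares only its size with p19Arf, read 6.41, 6.37 and 6.45 in young and 6.56, 6.64 and 6.66 in aged cells. The groups were apart by 0.11, and the rise was 0.21 with an SE of 0.05 (limma, adjusted p = 0.0112), less than the shift of 0.29 in background probes, which is also upward; 14.1% of all genes rose by as much. Without young replicate 2, aged replicate 2 or aged replicate 3 it did not pass (adjusted p = 0.0515, 0.0532 and 0.0567). All 4 INK4 genes thus had higher values in aged cells, with a median difference of 0.55 against 0.01 over all genes tested, and this direction held under quantile normalization, centring on the transcript cluster median and centring on the positive controls.

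**Figure D1:**
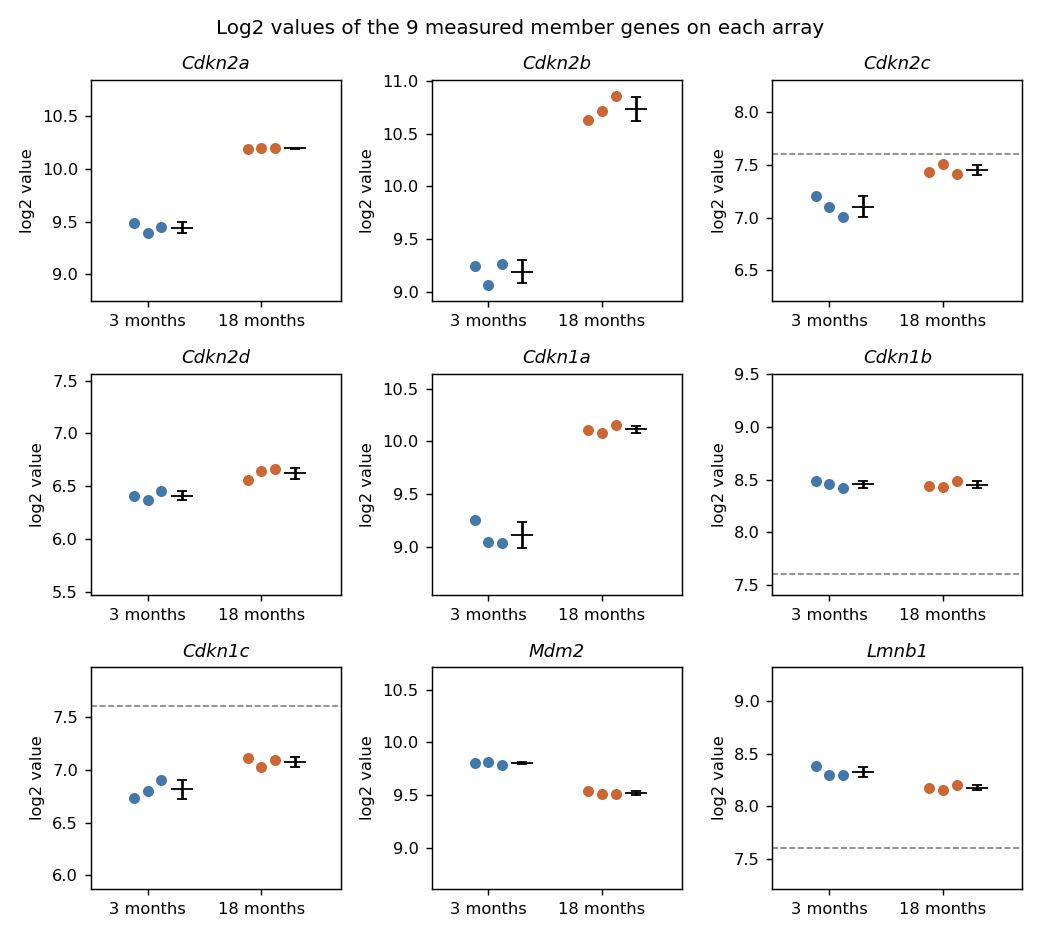
Log2 values of the 9 members with a value, by array, for cells from mice of 3 and 18 months (3 arrays each; points are arrays, black marks are mean and SD; every panel spans 2.1 log2 units, and the dashed line, where in range, is the 95th percentile of the negative controls at 7.61). Cdkn2b, Cdkn1a and Cdkn2a stand apart between ages, Cdkn1b overlaps, and Cdkn2c, Cdkn2d and Cdkn1c lie within the negative control range.

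Among the CIP/KIP genes, Cdkn1a, encoding p21, the classical p53 target and a broad CDK inhibitor, rose most. It read 9.25, 9.04 and 9.03 in young and 10.11, 10.08 and 10.15 in aged cells. One young array was higher than the other 2, and its distance to the lowest aged array was still 0.83. The rise was 1.01 with an SE of 0.06 (limma, adjusted p = 2.01e-06), or 2.01-fold, and 2.01% of all genes rose by as much.

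Cdkn1b, encoding p27, which restrains CDK2 in resting cells and is controlled largely through protein turnover, read 8.49, 8.46 and 8.42 in young and 8.44, 8.43 and 8.49 in aged cells. The groups overlapped. The difference was -0.00 with a 95% interval from -0.09 to 0.08 (limma, adjusted p = 0.949). After centring on the positive controls it was 0.09 and passed (adjusted p = 0.0403), and its sign also turned after quantile normalization and centring on the transcript cluster median. Within the arrays, Cdkn1a less Cdkn1b shifted by 1.01, from 0.65 to 1.66 on average, with no overlap between ages (exact permutation test, two-sided p = 0.1, the smallest possible; adjusted p = 0.1).

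Cdkn1c, an imprinted gene encoding p57, read 6.73, 6.80 and 6.91 in young and 7.11, 7.02 and 7.09 in aged cells. These values were within the negative control range and did not overlap. It rose by 0.26 with an SE of 0.06 (limma, adjusted p = 0.0064), less than the 0.29 of the background probes, and 11.4% of all genes rose by as much.

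Mdm2, the ligase that marks p53 for destruction and is itself a p53 target, moved against Cdkn1a. It read 9.81, 9.81 and 9.79 in young and 9.54, 9.51 and 9.51 in aged cells, with SDs of 0.01 and 0.02. It fell by 0.28 with an SE of 0.03 (limma, adjusted p = 6.19e-05), or 1.22-fold, and 10.7% of all genes fell by as much. In size this was just under the largest shift of the background probes, 0.29, which was upward, and the median negative control differed by -0.26. After centring on the positive controls the decrease was 0.18 and still passed (adjusted p = 0.0019). Within the arrays, Cdkn1a less Mdm2 went from -0.56, -0.77 and -0.76 in young to 0.57, 0.57 and 0.64 in aged cells, a shift of 1.29 with no overlap (exact permutation test, two-sided p = 0.1, the smallest possible; adjusted p = 0.1).

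Lmnb1, encoding lamin B1 of the nuclear lamina, read 8.38, 8.30 and 8.30 in young and 8.17, 8.16 and 8.21 in aged cells. The groups did not overlap, but only 0.09 lay between them. It fell by 0.15 with an SE of 0.04 (limma, adjusted p = 0.0175), or 1.11-fold, and 22.3% of all genes fell by as much. The median of the differences of single positive control probe sets was -0.15. Their array medians, on which the centring rests, differed by less: 9.91, 9.85 and 9.80 in young and 9.75, 9.77 and 9.75 in aged arrays. After centring on the positive controls the difference of Lmnb1 was -0.05 (adjusted p = 0.245), and after centring on the transcript cluster median -0.13 (adjusted p = 0.0815). Leaving out aged replicate 1 or aged replicate 2 also ended the call (adjusted p = 0.0709 and 0.084). Lmnb1 and Cdkn2d were the members that lost their call when 1 array was left out.

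**Figure D2:**
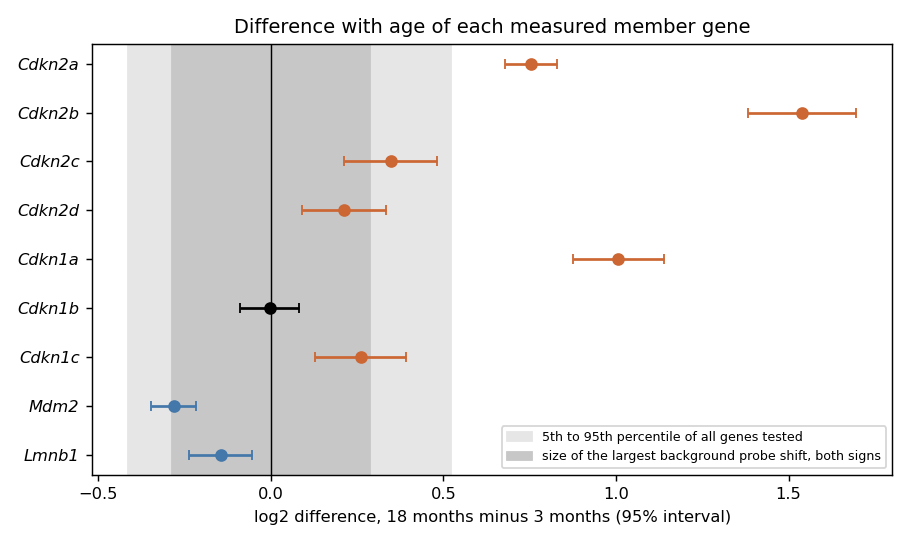
Log2 difference, 18 months minus 3 months, of each member with a value (points with 95% intervals from limma; orange higher, blue lower, black did not pass). Cdkn2b at 1.54, Cdkn1a at 1.01 and Cdkn2a at 0.75 lie beyond the 5th to 95th percentile of all genes tested, -0.41 to 0.52 (light band); the dark band spans the largest background probe shift, 0.29, in both directions.

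**Figure D3:**
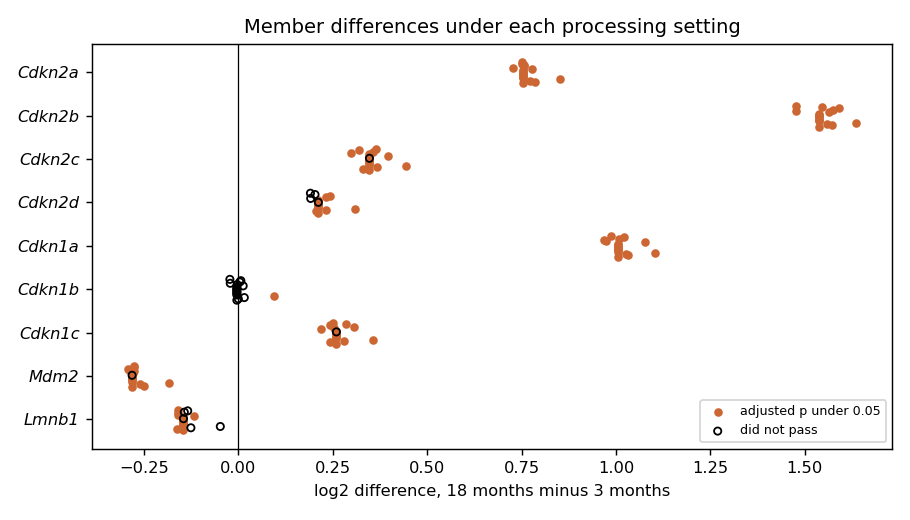
Log2 difference of each member under the setting reported and its alternatives (1 point per setting; filled, adjusted p under 0.05; open, did not pass). Cdkn2a, Cdkn2b and Cdkn1a passed under every setting shown, whereas Lmnb1 and Cdkn2d lost the call under several and Cdkn1b passed in 1.

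Cdkn2a and Cdkn2b lie side by side on chromosome 4. By RefSeq order, chosen for comparison after the members' values were known, the nearest protein-coding genes with a probe set are Mtap, a methylthioadenosine phosphorylase, on the Cdkn2a side and Dmrta1, a DM domain transcription factor gene, on the Cdkn2b side. Mtap read 10.44, 10.35 and 10.41 in young and 10.70, 10.73 and 10.70 in aged cells, and rose by 0.31 with an SE of 0.03 (limma, adjusted p = 7.85e-05). Dmrta1 rose by 0.76 from 5.51 to 6.26, both within the negative control range (limma, adjusted p = 8.18e-05). Both immediate neighbours were thus higher in aged cells too, as were 18.4% of all genes tested. Both rose by less than Cdkn2b, Mtap also by less than Cdkn2a, and Dmrta1 by about as much as Cdkn2a (0.75). The genes beyond Mtap and Dmrta1 were dim: Ifne and Ifna1 did not differ beyond the threshold (limma, adjusted p = 0.902 and 0.456), and Zfp352 and Izumo3 fell short of the filter. Around Cdkn1a, the adjacent genes Srsf3 and Rab44 differed by 0.09 and 0.10 without passing (limma, adjusted p = 0.0629 and 0.486); of the 4 genes beyond them Kctd20 rose by 0.11 (adjusted p = 0.0151) and the others did not pass. Next to Mdm2, Slc35e3 differed by -0.05 (limma, adjusted p = 0.329) and Cpm was below the filter. Further out, Cpsf6 and Nup107 fell by 0.74 and 0.34 (limma, adjusted p = 1.12e-06 and 0.00024), both by more than Mdm2. The aged mean of Cpsf6, 7.45, lay within the negative control range. Rap1b did not pass and Lyz1 was below the filter.

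**Figure D4:**
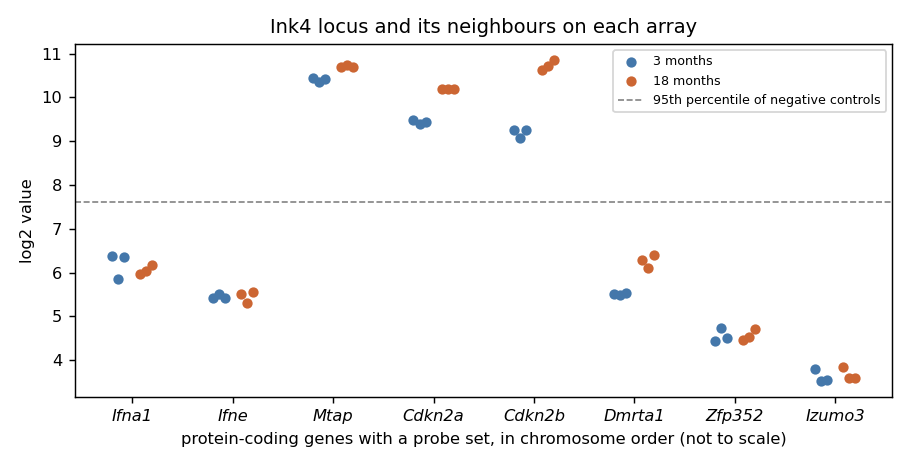
Log2 values by array of Cdkn2a, Cdkn2b and the 3 nearest protein-coding genes with a probe set on each side, in RefSeq order and not to scale (blue, 3 months; orange, 18 months; dashed line, 95th percentile of the negative controls at 7.61). Mtap, Cdkn2a, Cdkn2b and Dmrta1 are higher in aged arrays, Dmrta1 from a dim level, and the 4 outer genes are dim and overlap between ages; levels of different genes are not comparable.

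The targets of these inhibitors moved both ways. Among 10 CDK and cyclin genes, 4 fell, 3 rose and 3 missed the threshold, with a median difference of -0.02, against 0.01 over all genes. Cdk4 and Cdk6, the kinases that INK4 proteins bind, differed by 0.07 and 0.11 without passing (limma, adjusted p = 0.0607 and 0.0634). Cdk2, the main kinase inhibited by p21 and p27, fell by 0.39, from 8.73 ± 0.11 to 8.34 ± 0.06 (SD, n = 3 each; limma, adjusted p = 0.000732). Its partners Ccne1 and Ccne2 fell by 0.36 and 0.26 from 7.46 and 6.89, within the negative control range. Among D-type cyclins, Ccnd3 rose by 0.59 and Ccnd2 fell by 0.18. Ccnb2 and Ccna2, of mitosis and S phase, rose by 0.94 and 0.53, and Cdk1 differed by -0.10 (limma, adjusted p = 0.0643). Ccnd1 and Ccnb1 had no probe set of their own and were not analysed here. Under quantile normalization 5 of the 10 rose and 5 fell, and centred on the positive controls 5 rose and 3 fell. Over all 20187 genes tested, that centring gave 5938 higher and 2879 lower, with a median difference of 0.11. The centred counts of this and the following lists are to be read against that background. For their counts on the deposited scale the background is 18.4% of all genes higher and 22.1% lower.

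Downstream, of 13 retinoblastoma family and E2F genes none rose and 6 fell, with a median of -0.09. Centred on the positive controls 5 rose and 5 fell, with a median of 0.01 against 0.11 over all genes. Rb1, encoding the retinoblastoma protein that CDK4 and CDK6 phosphorylate, fell by 0.54, from 8.60 ± 0.02 to 8.06 ± 0.03 (SD, n = 3 each; limma, adjusted p = 5.3e-06). Tfdp2, a dimer partner of E2F factors, fell by 0.42 to 7.50, within the negative control range. Among 9 proliferation genes 4 fell, 2 rose and 3 missed the threshold; centred on the positive controls 4 rose and 4 fell. Plk1 and Mki67 rose by 0.47 and 0.22, and Bub1 and Rrm2 fell by 0.40 and 0.29 from 7.82 and 7.71 to values within the negative control range.

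Other p53 targets did not share 1 direction. Among 21 tested, 9 fell, 5 rose and 7 missed the threshold, with a median of -0.10. Of all genes tested, 22.1% fell and 18.4% rose, so both directions were common. Centred on the positive controls, 8 rose and 6 fell, with a median of 0.00 against 0.11 over all genes. Sesn1, a stress-induced regulator of mTORC1, went from 7.35 ± 0.16 to 8.83 ± 0.04, and Fas, a death receptor, from 6.99 ± 0.06 to 8.10 ± 0.07 (SD, n = 3 each), rises of 1.48 and 1.11 from young means within the negative control range. Tnfrsf10b, another death receptor, fell by 0.79, Plk2 by 0.71 and Gadd45a, a growth arrest gene, by 0.58. Ccng1, encoding cyclin G1 and a classical p53 target, differed by only 0.06 (limma, adjusted p = 0.126). Cdkn1a therefore differed in the direction of Sesn1 and Fas, and Mdm2 in that of Tnfrsf10b, Plk2 and Gadd45a. Of 17 regulators and relatives of p53, 3 rose and 11 fell, with a median of -0.16, where 18.4% of all genes rose and 22.1% fell. Centred on the positive controls 3 rose and 7 fell, against 5938 and 2879 of all 20187 genes. Mdm4, the partner of MDM2 in restraining p53, fell by 0.52, from 8.59 ± 0.06 to 8.07 ± 0.07 (SD, n = 3 each; limma, adjusted p = 3.7e-05), and Usp7, a deubiquitinase of MDM2 and p53, also fell by 0.52. Hipk2, a kinase of p53, rose by 0.33, and Trp63, a relative of p53, rose by 0.56 to a mean of 6.00, within the negative control range.

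Polycomb proteins and a set of transcription factors are known to repress or activate the Ink4 locus. Among 20 such genes 8 fell, 3 rose and 9 missed the threshold, with a median of -0.08. Centred on the positive controls 6 rose and 5 fell, with a median of 0.01 against 0.11 over all genes. Bmi1, the Polycomb protein best known for repressing Cdkn2a, was at 9.01 and 9.02 (limma, adjusted p = 0.805; 95% interval of the difference from -0.07 to 0.09). Suz12 and Ezh2, of the complex that methylates histone H3, fell by 0.55 and 0.33, and Rnf2, a ubiquitin ligase of the other Polycomb complex, fell by 0.44. Ets2 and Ets1, which activate Cdkn2a and are named after their values were seen, fell by 0.40 and 0.34 (limma, adjusted p = 3.51e-05 and 8.09e-05). Ring1, a relative of Rnf2, rose by 0.28 from 7.53, within the negative control range, and Id1, an inhibitor of the ETS activation of Cdkn2a, rose by 0.54. Of 10 genes that act in the turnover of CIP/KIP proteins none rose and 4 fell, with a median of -0.11. Of all genes tested, 18.4% rose and 22.1% fell. Among the 4 decreases only that of Cks1b was larger than the largest background probe shift, 0.29. Centred on the positive controls 2 fell, with a median of -0.01 against 0.11 over all genes. Cks1b, the cofactor through which SKP2 recognises p27, fell by 0.34 and Ddb1 by 0.24, while Cdkn1b itself did not pass.

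Among 11 other lamina genes, 5 fell, 2 rose and 4 missed the threshold, with a median of -0.08; centred on the positive controls 4 rose and 5 fell. The A-type lamin gene Lmna rose by 0.42, from 9.07 ± 0.07 to 9.49 ± 0.04 (SD, n = 3 each; limma, adjusted p = 7.12e-05), against the direction of Lmnb1. Lmnb2, the other B-type lamin gene, differed by only 0.10 (limma, adjusted p = 0.0666). Tmpo, whose LAP2 products bind lamins, fell by 0.39, and Lbr, the lamin B receptor, fell by 0.21. Of the proteins that link the lamina to the cytoskeleton, Syne1 fell by 0.47, Sun1 fell by 0.22 and Sun2 rose by 0.21. Lemd3 fell by 0.41 from 7.22, within the negative control range, and Zmpste24, the protease that matures lamin A, differed by -0.01 (limma, adjusted p = 0.797). Banf1 and Icmt differed by -0.04 and -0.08 and did not pass either (adjusted p = 0.493 and 0.265).

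**Figure D5:**
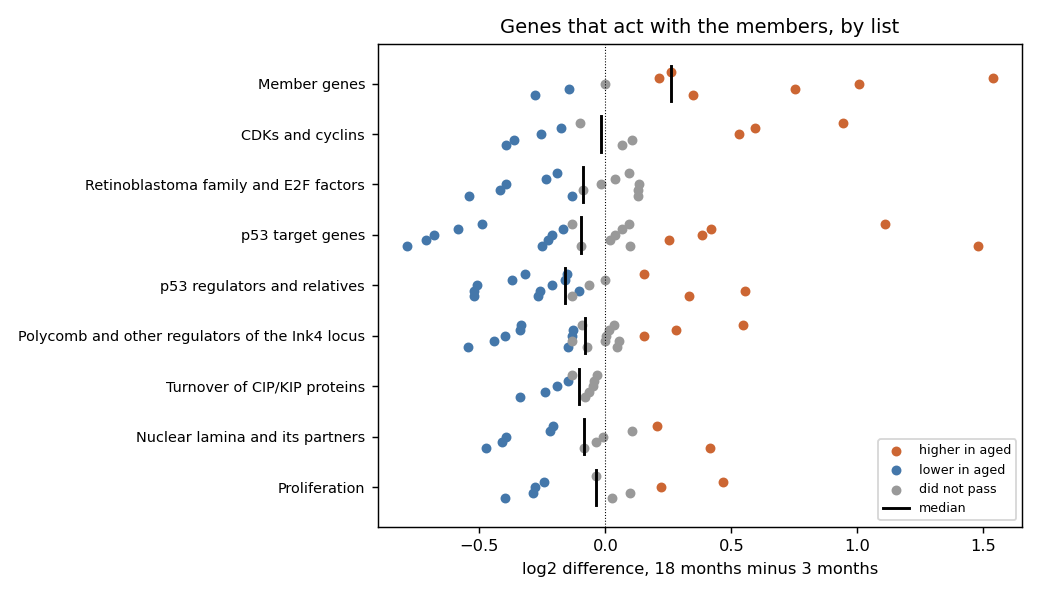
Log2 difference, 18 months minus 3 months, of the members and of genes that act with them (1 point per gene tested, spread vertically for legibility; orange higher, blue lower, grey did not pass; bar, median). The members' median is 0.26, and the medians of the other 8 lists lie between -0.16 and -0.02 on the deposited scale. After centring on the positive controls 6 of the 8 turn positive, while the median of all genes tested moves from 0.01 to 0.11, above each of the 8.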

How the data were processed

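The labels describe 6 Affymetrix arrays, 3 per age, with ages and replicate numbers in the sample titles. The authors deposited log2 expression values, 1 per probe set and array. MAS5 is the tool listed in the submitters' processing notes; no version, scaling target or background step is stated there. Values were used as deposited. Control kinds were read from probe set names. Symbols were updated through the RefSeq table of GRCm38.p6, with 31256 of 31258 single-gene probe sets matched, and the brightest probe set over all arrays stood for a gene; each member had 1. Genes with a mean under 5.40, the median of transcript clusters, were not tested.

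The ages were compared with limma 3.58.1 in R 4.3.3 (lmFit, eBayes with intensity trend, Benjamini-Hochberg adjustment over all genes), and the script was tested on simulated data. The members and lists were chosen with earlier results of these data known; lists are described by counts and medians. The genes named were all members, the 2 called genes per list with the largest difference in each direction, all CDK, cyclin and lamina genes and a few stated markers. The neighbouring genes, sequence motifs and pairs of genes were chosen after the values were seen. Genes like a member in pattern were not ranked, since genes that differ with age correlate over arrays of 2 ages. Alternatives were quantile normalization, 2 centrings, 2 filters, the mean of all probe sets, other variance models, a test against a difference of 0.3, the replicate number as a block and each array left out. The number of arrays limits the precision. Figures were drawn with matplotlib 3.10.9.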

Additional observations from a re-analysis of the deposited data

How the results depend on the processing

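The calls of Cdkn2a, Cdkn2b and Cdkn1a held, with the direction, under all 16 alternatives, and those of Cdkn2c, Cdkn1c and Mdm2 under all but the test against a difference of 0.3. That test left 3 members and 1985 genes called, in place of 8 and 8195, by its own construction. Cdkn1b, which did not pass, changed sign after quantile normalization (0.00004), centring on the transcript cluster median (0.0158) and centring on the positive controls (0.0937), and its differences with 1 array left out ranged from -0.0224 to 0.0128; the cause was not tested. With 1 array left out, 6 to 8 members and 6717 to 9291 genes passed. Cdkn2d fell below the strictest filter and has no value there. Centring on the positive controls moved the median of all genes from 0.01 to 0.11 and the share of calls that were higher from 45.4% to 67.3%. Same-numbered arrays of the 2 ages showed no shared deviation across genes (correlations of -0.05, 0.07 and 0.02). The labels do not say whether the numbers pair arrays, and these correlations cannot decide it. With the replicate number as a block 8 members and 7728 genes passed. Probe sets within the negative control range limit what can be said of Cdkn2c, Cdkn2d and Cdkn1c.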
